A study of Mus musculus with 49 samples.

Results

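The comparison described here sets mouse livers 1 d after a single toxic dose of acetaminophen (APAP, paracetamol) against livers of the control group. Its members are the 10 arrays whose titles place them at 1 d (5 arrays) or in control (5 arrays), out of 49 arrays over 10 groups. All animals were male C57BL6/N mice. The 1 d group received 300 mg/kg acetaminophen intraperitoneally in warm phosphate-buffered saline after an overnight fast and ate freely afterwards. The control group is labelled as having no treatment, and neither its feeding nor a vehicle injection is stated. Groups at 12 h and 2 d after the same dose, with 5 arrays each, are used below to place the 1 d values in time. Replicate numbers are given, but not whether each array is its own mouse; the p-values therefore describe array-to-array spread, part of which may be technical.

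Acetaminophen is converted by cytochromes P450 in hepatocytes around the central vein to a reactive quinone imine that binds glutathione and, once glutathione is spent, cell proteins. The hepatocytes that carry the activating enzymes die, and the surviving ones switch on stress, repair and division programmes while monocytes and neutrophils enter the dead zone. Division of the surviving hepatocytes follows the peak of necrosis.

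Total RNA was measured on Affymetrix mouse arrays, and each value is a log2 expression value, so that a difference of 1 is 2-fold. The control arrays used here hold a value only for the first 8137 of 45101 probe sets, which left 5976 genes with a value on all arrays. An offset between complete and shortened arrays can be looked at in the 1 h group, whose arrays are complete: against control, the median of all genes differed by 0.0 and 38 genes (0.636%) passed the test. Beyond that, completeness and group cannot be told apart. The arrays of the 1 d group correlated with each other at r from 0.978 to 0.989 over all genes and those of control at 0.969 to 0.993. Control replicate 3 had a narrower spread of values than the other 9 arrays (SD 2.25 against 2.41 to 2.48). In whole liver, fewer cells of a type and less RNA per cell cannot be told apart.

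At 1 d, 1772 of 5976 genes (29.7%) differed from control at an adjusted p under 0.05 in limma's moderated test (Benjamini-Hochberg over all genes). Of these, 969 (16.2%) were higher and 803 (13.4%) lower. Differences of at least 2-fold were more often rises, with 284 genes (4.75%) higher and 132 (2.21%) lower, or 416 (6.96%) in all. All 5 arrays at 1 d lay above all 5 control arrays for 572 genes (9.57%) and below them for 373 (6.24%), together 945 (15.8%). These shares are the background against which the counts of the gene groups below are read, and the median difference of all genes was −0.03. The groups share some members, such as Cyp2c37 in the P450 and pericentral lists and Tagln in the actin and stellate cell lists. Such genes are counted in each list. With a fit to the compared groups alone, 1135 genes were called, 682 higher and 453 lower.

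The share of lower genes was larger among abundant transcripts. Of 96 genes with a control value of 12 or more, 51 (53.1%) were lower and 15 (15.6%) higher. Between control values of 4 and 6, 165 of 2028 genes (8.14%) were lower and 282 (13.9%) higher. The control arrays enter both the level and the difference, which by itself favours falls at high control values, so these shares are a description only. The balance of rises and falls depended on the scale and on 1 control array. Rises made up 54.7% of calls with the values as deposited, 45.3% after quantile normalization, 39.7% after centring each array on its median (810 higher, 1230 lower) and 15.6% after centring on 30 cytosolic ribosomal protein genes (541 higher, 2917 lower). With the scale unchanged, leaving out control replicate 3 gave 788 higher and 856 lower genes (47.9% rises), and array weights gave 875 and 908 (49.1%). Ribosomal centring moved the median of all genes from −0.03 to −0.31, and group medians that change sign with it are marked below.

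**Figure D1:**
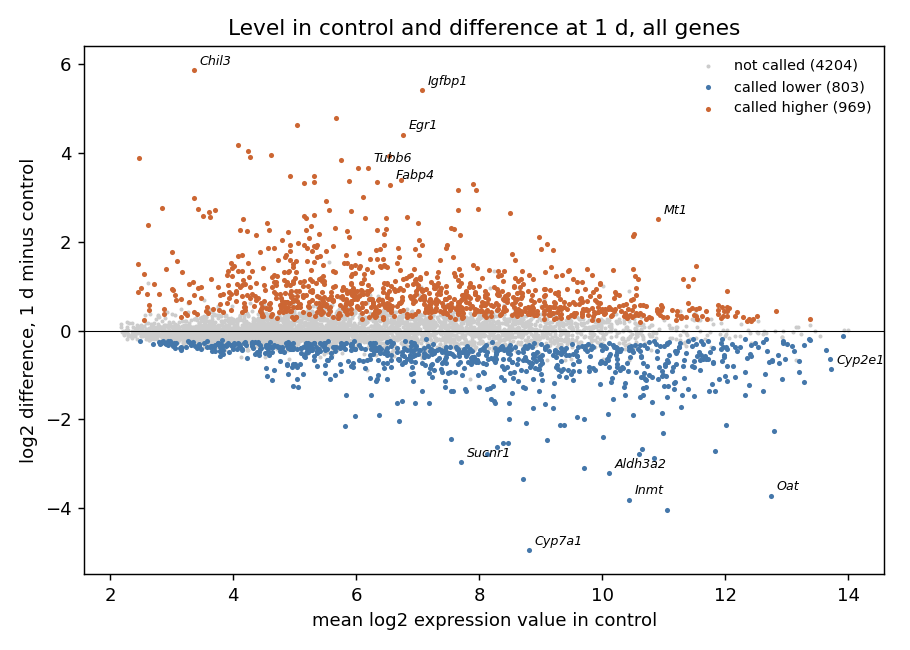
Difference between 1 d and control (log2, vertical axis) against the mean log2 value in control (horizontal axis) for 5976 genes, 1 point per gene, coloured by the call at an adjusted p under 0.05. Called rises are found over the whole range of levels, from 6.01% of genes with a control value under 4 to 22.8% of those between 10 and 12. Called falls are 53.1% of the genes at 12 or more.

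The largest rises came from secreted proteins, growth-response transcription factors and cytoskeletal or inflammatory genes. Igfbp1, which encodes a secreted protein that binds insulin-like growth factors, read 8.33, 7.44, 6.23, 5.97 and 7.39 in control and 13.17, 12.70, 11.43, 12.93 and 12.18 at 1 d. The lowest 1 d array was more than 3 log2 units above the highest control array. The difference was 5.41 ± 0.49 (SE of limma's fit; 42.6-fold, adjusted p = 8.36e-12). Procr, the endothelial receptor for protein C, had a tight control group (4.30, 4.31, 4.11, 4.34 and 4.34) and read 9.73, 8.03, 7.32, 8.52 and 7.37 at 1 d. That is a difference of 3.91 ± 0.31 (adjusted p = 5.12e-13) with a wide 1 d group led by replicate 1. Tubb6, a beta-tubulin isotype, rose by 3.66 ± 0.35 from 5.95 to 6.51 in control to 9.28 to 10.60 at 1 d. Among called genes whose groups do not overlap, Chil3, a chitinase-like protein of alternatively activated macrophages, had the largest rise (5.86 ± 0.46). After Igfbp1 came the neutrophil chemoattractant Cxcl1 (4.77 ± 0.68) and the calcium-binding S100a8 of neutrophils and monocytes (4.63 ± 0.63).

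**Figure D2:**
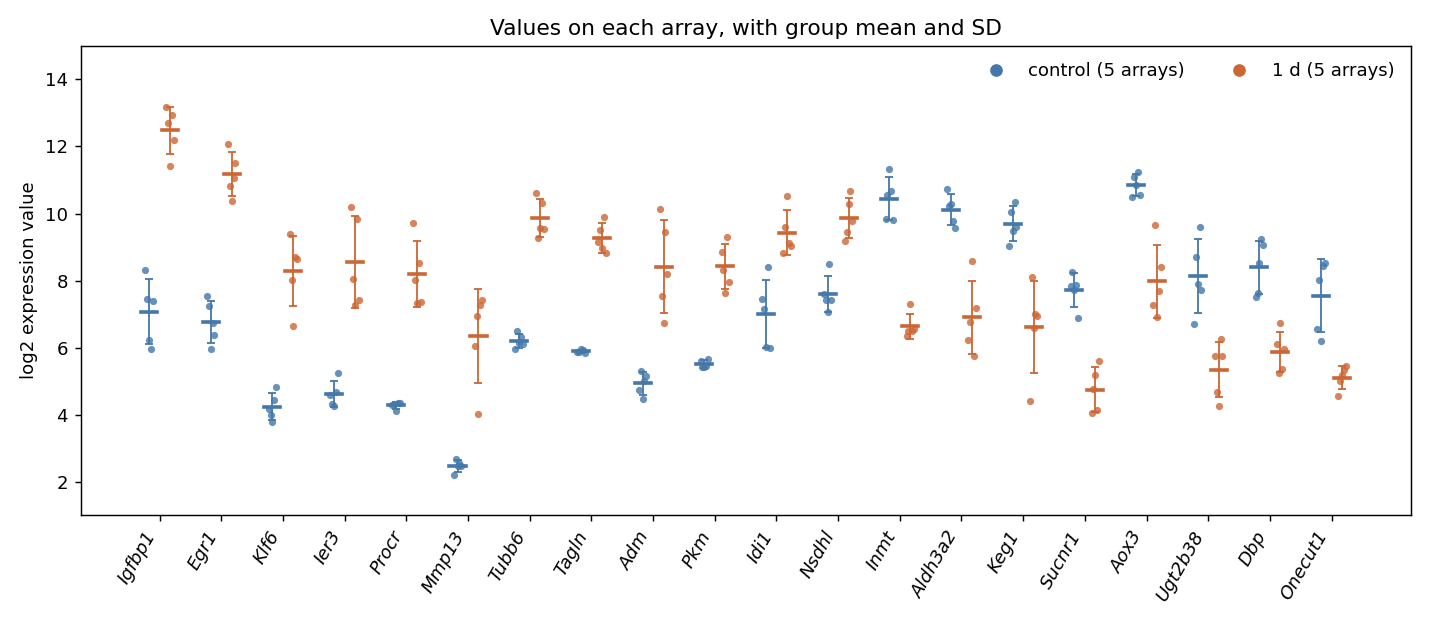
Log2 expression values of 20 genes on each of 5 control arrays (blue) and 5 arrays at 1 d (orange), with the group mean (bar) and SD (whisker). For each of these genes the groups do not overlap; Igfbp1 moves from 7.07 ± 0.97 to 12.48 ± 0.69 and Aox3 in the opposite direction.

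Immediate early and AP-1 genes, transcribed within minutes of a stimulus through serum response factor and MAP kinases, were in many cases higher at 1 d. Of 25 measured, 16 were higher and 0 lower, with a median of 1.33. Egr1, a zinc-finger factor of this class, read 7.53, 7.24, 5.97, 6.74 and 6.38 in control and 12.08, 10.83, 10.37, 11.06 and 11.50 at 1 d (4.40 ± 0.56, adjusted p = 3.52e-08). Fos, the partner of Jun in AP-1, read 6.12, 6.27, 4.81, 5.57 and 6.00 in control and 11.48, 9.14, 7.87, 10.11 and 9.34 at 1 d (3.83 ± 0.58, adjusted p = 1.08e-06). Klf6, a zinc-finger factor of injured liver cells, read 4.16, 3.99, 3.79, 4.43 and 4.83 in control and 9.40, 8.01, 6.63, 8.69 and 8.64 at 1 d (4.03 ± 0.52). In these 3 genes no 1 d array reached down to control, and replicate 3 was the lowest 1 d array each time while replicate 1 was the highest. Ier3, an inhibitor of apoptosis in many cell types, split the 1 d group more widely, with 10.19 and 9.83 on replicates 1 and 4 and 7.28 to 8.05 on the others (3.94 ± 0.69). Jun rose by 3.17 ± 0.36, its small Maf relative Maff by 3.35 ± 0.33 and the antiproliferative Btg2 by 3.00 ± 0.61. Several members of the same class were not called: Nr4a1 differed by 0.03, Egr3 by −0.01 and Srf by 0.11.

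Called rises included ligands, receptors and inhibitors of cell growth. Of 51 cyclins, growth factors and their regulators, 18 were higher and 6 lower, with a median of 0.27 that became −0.01 with ribosomal centring. Cdkn1a, the p21 inhibitor of cyclin-dependent kinases, read 7.49, 7.20, 6.09, 5.94 and 6.92 in control and 10.79, 9.88, 9.07, 10.58 and 10.26 at 1 d. The groups lay more than 1.5 log2 units apart, with a difference of 3.39 ± 0.40 (adjusted p = 8.52e-09). Tnfrsf12a, the receptor for the regenerative ligand TWEAK, rose by 3.16 ± 0.28, and Ccn2, a matricellular target of YAP and TGF-beta, by 3.29 ± 0.37. Among ligands of the epidermal growth factor receptor, Ereg rose by 2.97, Hbegf by 1.07 (its other probe set by 2.24) and Tgfa by 0.58 (its other probe set differed by 0.08, not called), whereas Egf itself differed by −0.12 and was not called. Inhbe, an activin subunit made by hepatocytes, fell by 2.12. Cyclin D1 (Ccnd1), the G1 cyclin of regenerating hepatocytes, was 0.99 ± 0.42 higher with an adjusted p of 0.0674 and was not called. Its 1 d arrays read 6.69, 8.07, 9.59, 7.86 and 8.07, and replicate 1 lay within the control range of 6.35 to 7.58. Ccnd2 rose by 1.28 (its dim probe set by 0.52).

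Most other p53 targets were not called, and the share called (28.6%) was near that of all genes. Of 14 measured, 3 were higher (Cdkn1a, Btg2 and the transglutaminase Tgm2 at 1.83) and 1 was lower (Ei24, −0.71), and the median of 0.18 became −0.10 with ribosomal centring. Mdm2, the ubiquitin ligase that degrades p53, differed by 0.23, Bbc3 (Puma) by 0.18 and Ccng1 by −0.01, none of them called. Of 28 Bcl2 family and cell death genes, 7 were higher and 0 lower, at a median of 0.12 that became −0.16 with ribosomal centring. Counted in either direction, these 25% were near the 29.7% of all genes called. All calls were rises, against 16.2% of all genes higher and 13.4% lower. Those 7 included the survival factors Mcl1 (1.35 ± 0.17; its other probe set 0.56, also called), Bcl2l1 (0.82) and Birc3 (0.61; 0.33 with ribosomal centring, adjusted p = 0.0828) and, on the killing side, Bak1 (0.30; the call was lost without any of 7 single arrays, with adjusted p up to 0.178), while Bad, Bid, Bok and Fadd lay between −0.18 and 0.01 and were not called.

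Cytoskeletal genes were widely higher. Of 38 genes for actins, myosins, tropomyosins and their regulators, 29 were higher and 0 lower, against 16.2% of all genes called higher, and their median was 0.90. Tagln, an actin cross-linker of smooth muscle and activated stellate cells, held control values between 5.84 and 5.95 and read 9.14, 9.52, 8.96, 9.90 and 8.83 at 1 d. That is a difference of 3.37 ± 0.27 (10.4-fold, adjusted p = 5.12e-13). Coro1a, an actin regulator of leukocytes, rose by 2.57, the scaffold Iqgap1 by 2.52, moesin (Msn) by 2.30, Tpm1 by 2.03 and the non-muscle myosin Myh9 by 1.82. Actb and Actg1, often used as reference genes, rose by 1.16 and 1.01. Of 12 tubulin genes and regulators, 5 were higher and 1 was lower at a median of 0.19, which became −0.09 with ribosomal centring. Behind Tubb6 came Tuba1a (1.92), Tubb5 (1.73) and Tubb4b (1.26), and the testis-enriched Tuba8 fell by 1.00. Krt8, a keratin of hepatocytes, rose by 2.18 ± 0.21 from an already high level (10.06 to 10.90 in control, 12.31 to 13.04 at 1 d), and Lmna, the A-type lamin, by 1.29. Gja1, the connexin of non-parenchymal cells, rose by 1.46 (its other probe set differed by 0.57 and was not called), while Gjb2, a connexin of hepatocytes, fell by 1.07. Cd24a, a surface protein of immature hepatic and biliary cells, rose by 2.25. Among annexins and S100 proteins 6 of 11 were higher and 2 lower. Anxa2 (3.93), S100a6 (4.18), Anxa4 (1.22) and S100a10 (1.16), the partner of Anxa2, were higher, and Anxa6 differed by −0.14 and was not called.

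Genes of the extracellular matrix moved in part. Of 53, 20 were higher and 6 lower (median 0.28, 0.0 with ribosomal centring). Mmp13, an interstitial collagenase, was near the lower end of the scale in control (2.20, 2.68, 2.47, 2.55 and 2.46) and read 6.04, 6.94, 4.03, 7.28 and 7.41 at 1 d. Replicate 3 lay far below the other 1 d arrays but above all control arrays, and the difference was 3.87 ± 0.41 (adjusted p = 5.56e-10). Mmp3 rose by 2.25 and the integrin subunit Itga6 by 2.04. Nid1, a basement membrane linker, read 6.54, 6.88, 5.67, 6.26 and 6.34 in control and 10.67, 8.97, 9.87, 9.91 and 9.01 at 1 d (3.35 ± 0.30). The fibrillar collagen genes Col1a1 and Col1a2 differed by 0.15 and 0.33 without a call, and their groups overlapped. Mmp2, a gelatinase, fell by 0.76.

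Targets of NRF2, the factor freed by electrophiles to drive antioxidant genes, were higher in 10 of 15 cases and lower in 1, with a median of 0.65. Pgd of the pentose phosphate pathway rose by 2.55, Nqo1 by 1.27 ± 0.25, Srxn1 by 0.96 ± 0.15, Txnrd1 by 0.94 and glutathione reductase (Gsr) by 0.65. Srxn1, which reduces overoxidised peroxiredoxins, read 6.31 to 6.69 in control and 6.91 to 7.79 at 1 d without overlap. Gclm, the modifier subunit of the glutathione-making ligase, differed by −0.01, and Ephx1 fell by 0.63. Among the genes for acetaminophen activation and glutathione handling, Cyp2e1 fell by 0.87, Cyp3a11 by 0.64 and cytochrome b5 (Cyb5a) by 0.20. The Cyb5a call was lost without 1 d replicate 4 (adjusted p = 0.0611).

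Genes of protein folding in the endoplasmic reticulum and of the amino acid stress response were called in part. Of 24 endoplasmic reticulum genes, 12 were higher and 0 lower, with a median of 0.43. Called members with the largest values serve oxidative folding, calcium binding and the translocon: Ero1a 1.12 (its other probe set 2.00), Calu 0.98, Ssr1 0.89 and Sec61b 0.86. Central targets of the unfolded protein response were not called, with Hspa5 at 0.22, Hsp90b1 at 0.14, Hyou1 at 0.07 and Xbp1 at 0.08. Of 15 ATF4 targets 6 were higher and 2 lower. Psph rose by 1.40, Eif4ebp1 by 1.05 (its dimmer probe set differed by −0.05) and the cystine carrier Slc7a11 by 0.78, whereas Ddit3 (Chop) was 0.74 higher without passing the test and the hormone Fgf21 differed by −0.12.

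Some heat shock chaperones were lower at 1 d than at 12 h. Of 26, 7 were higher and 3 lower than control (median 0.16, −0.12 with ribosomal centring), and 8 were lower, 0 higher and 18 not called against 12 h (median −0.02), where 1.86% of all genes were lower. Without control replicate 3, 5 members were lower than control. Hsph1, a nucleotide exchange factor for Hsp70, read 8.91, 8.98, 8.57, 9.24 and 8.95 in control and 8.53, 8.83, 8.04, 8.48 and 9.21 at 1 d, and the groups overlapped. Its mean was 10.62 at 12 h, 2.00 ± 0.32 above the 1 d mean (adjusted p = 7.25e-05). Bag3, a partner of Hsp70 in selective autophagy, also fell by 2.00 ± 0.31 from 12 h, and Hspb1 fell by 1.38 ± 0.36. Dnaja1, a J-domain protein that delivers clients to Hsp70, was called in opposite directions: 0.64 above control at 12 h and 0.63 ± 0.16 below it at 1 d. Dnajb1 was still 1.32 ± 0.32 above control, although its other probe set differed by 0.27 only and was not called. The crystallin Cryab rose by 0.86 and Fkbp4 fell by 0.67, but its other probe set differed by −0.14 and was not called.

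Heat shock elements, the paired GAANNTTC repeats bound by heat shock factors, were looked for in RefSeq promoters (GRCm38.p6, from 250 bases before to 50 after the start, first listed entry of each gene, both strands). Of the 26 chaperone genes, 21 had an entry and 7 of these held the letters (33.3%), against 7.95% of all 27025 promoters. The 250 bases before the start are shown for the 2 genes with a match there and the largest falls from 12 h, with the matches in capitals. In Hspb1 (plus strand, chr5:135887669-135887918) they begin 117 and 97 bases before the start, and in Dnaja1 (plus strand, chr4:40722218-40722467) 124 bases before it.
Hspb1: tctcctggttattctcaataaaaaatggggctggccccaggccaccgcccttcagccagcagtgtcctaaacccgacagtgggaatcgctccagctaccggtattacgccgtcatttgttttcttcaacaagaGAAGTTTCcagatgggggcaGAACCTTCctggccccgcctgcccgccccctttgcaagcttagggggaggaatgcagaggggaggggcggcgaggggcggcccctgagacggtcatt
Dnaja1: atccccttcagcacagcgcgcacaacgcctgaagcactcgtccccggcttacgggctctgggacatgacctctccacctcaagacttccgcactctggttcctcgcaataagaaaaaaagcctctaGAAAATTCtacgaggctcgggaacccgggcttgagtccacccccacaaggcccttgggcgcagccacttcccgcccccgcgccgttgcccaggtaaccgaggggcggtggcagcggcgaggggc
A match is a description of the letters and no measure of binding.

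Cholesterol synthesis genes, which SREBP2 switches on when sterols run short in the endoplasmic reticulum, were among the groups with large rises. Of 17, 11 were higher and 1 lower, with a median of 1.23. Idi1, the isomerase that makes dimethylallyl pyrophosphate, read 7.46, 7.16, 6.02, 8.39 and 5.99 in control and 8.83, 9.60, 10.51, 9.13 and 9.04 at 1 d (2.42 ± 0.58, adjusted p = 0.00118). Control replicate 4 was the highest control array for Idi1, Cyp51, Nsdhl, Sqle, Lss and Fdps, and for Sqle, the rate-limiting squalene epoxidase, its 9.37 overlapped the 1 d range of 9.32 to 10.26. Nsdhl, a sterol dehydrogenase, read 7.59, 7.42, 7.06, 8.48 and 7.43 in control and 9.19, 9.46, 10.27, 10.66 and 9.79 at 1 d (2.28 ± 0.32). Nsdhl ranked behind only Anxa2 among called rises from 12 h whose groups do not overlap (1.93 ± 0.32, adjusted p = 8.95e-05). Of the 17 members, 4 were higher than at 12 h, where 3.23% of all genes were higher. Fdps differed by 2.65, Cyp51 by 2.31 (its other probe set by 0.70, not called), Sqle by 2.14, Msmo1 by 1.94 and Lss by 1.84 (its dimmer probe set by 0.72, also called). Insig2, which holds SREBP back, fell by 0.67, a call lost without any of 3 single arrays (adjusted p up to 0.0613). Genes of fatty acid synthesis, also in the reach of SREBP, had another balance: of 26, 3 were higher and 9 lower (median −0.32). Scd1, the main liver stearoyl-CoA desaturase, fell by 2.27 ± 0.27 from 12.38 to 13.02 in control to 9.94 to 11.33 at 1 d. Elovl3 fell by 2.66, Elovl6 fell by 1.58 and the glucose-sensing factor Mlxipl by 1.14, whereas Fasn differed by −0.05. Scd2, the desaturase of other tissues, rose by 1.68, but its other 2 probe sets differed by 0.39 and −0.07 and were not called.

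The pentamer CCAAT, read by NF-Y, which works beside SREBP at many of its targets, was present in 13 of 15 cholesterol gene promoters with an entry (86.7%), against 37.9% of all promoters. TCACNCCAC, written here for the sterol element, was in 0 of 15, against 1.22% of all. The AP-1 letters TGANTCA were in 3 of 31 actin cytoskeleton promoters (9.68%), against 7.93% of all. The 250 bases before the start are shown for the 2 called members with an entry and the largest differences, with CCAAT or its reverse complement in capitals. In Idi1 (plus strand, chr13:8885356-8885605) the matches begin 45 and 14 bases before the start, and in Cyp51 (minus strand, chr5:4104698-4104947) 29 bases before it.
Idi1: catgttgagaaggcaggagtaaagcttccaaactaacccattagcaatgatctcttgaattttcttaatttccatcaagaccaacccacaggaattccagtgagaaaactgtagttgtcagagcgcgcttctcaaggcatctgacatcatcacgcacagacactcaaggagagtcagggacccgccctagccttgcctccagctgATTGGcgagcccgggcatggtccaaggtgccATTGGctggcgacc
Cyp51: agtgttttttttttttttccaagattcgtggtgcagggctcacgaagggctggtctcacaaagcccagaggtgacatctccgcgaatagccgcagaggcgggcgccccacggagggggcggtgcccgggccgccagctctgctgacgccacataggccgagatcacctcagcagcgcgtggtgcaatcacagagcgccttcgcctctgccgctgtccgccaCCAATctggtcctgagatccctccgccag

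Glycolytic and hypoxia-responsive genes were higher in 15 of 27 cases and lower in 2, with a median of 0.33. Adm, a vasodilator peptide induced by low oxygen, read 4.73, 5.30, 4.46, 5.01 and 5.16 in control and 10.13, 7.53, 6.73, 9.46 and 8.19 at 1 d (3.48 ± 0.37, adjusted p = 5.56e-10). Pkm, the pyruvate kinase of non-hepatocytes and dividing cells, read 5.41 to 5.65 in control and 8.86, 8.33, 7.64, 9.31 and 7.97 at 1 d (2.92 ± 0.24). Both genes were highest on replicates 1 and 4 and lowest on replicate 3. Pklr, the hepatocyte pyruvate kinase, differed by 0.23 and was not called. Ndrg1 rose by 1.86 (its other probe set by 2.73) and hexokinase Hk2 by 1.18. Among gluconeogenic and glycogen genes, Pck1 (−0.06) and G6pc (−0.10) were not called, while glycogen phosphorylase (Pygl) fell by 1.02, the insulin receptor substrate Irs1 fell by 1.74 and the branching enzyme Gbe1 rose by 0.86.

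Most cytosolic ribosomal protein genes rose by small amounts, and other genes of translation were called in part. Of 30 cytosolic ribosomal proteins, 23 were higher and 1 lower, with a median of 0.33. Rpl35 led with 0.62 ± 0.08 (11.09 to 11.54 in control, 11.87 to 12.09 at 1 d), then came Rpl13a (0.57) and Rpl41 (0.54). The exception was Rps20 (−0.68), whose call was lost without 1 d replicate 3 (−0.51, adjusted p = 0.0549). Its probe set was dim (4.77 in control and 4.09 at 1 d), far below the level of Rpl35, Rpl13a and Rpl41. Of 27 ribosome biogenesis factors 10 were higher, 0 lower and 17 not called (median 0.18, −0.10 with ribosomal centring), with Nhp2 at 1.15, nucleolin (Ncl) at 1.05 (its dimmer probe set 0.40, not called), Gar1 at 1.03 and Mybbp1a at 0.89. Of 45 splicing and RNA export factors 20 were higher and 1 lower (0.26, −0.02 with ribosomal centring), led by Tardbp (1.20), Ddx39a (1.00), Nup62 (0.88) and the exportin Xpo1 (0.82, with 0.34 and no call on its other probe set). Of 24 translation factors and tRNA synthetases 10 were higher and 0 lower (0.27, −0.01 with ribosomal centring), among them glycyl-tRNA synthetase (Gars, 0.59) and the initiation factors Eif2s2 (0.58) and Eif1ax (0.49). Fitted on the compared groups alone, Gars and Eif1ax were not called (adjusted p = 0.0744 and 0.0634). Without control replicate 3, 6 ribosome biogenesis factors and 6 translation factors or synthetases were higher, in place of 10 each. Of 24 proteasome subunits, 6 were higher and 1 lower (0.08, −0.20 with ribosomal centring and −0.01 without control replicate 3), and their 29.2% of calls was near the 29.7% of all genes. Psmd8 (0.95) and Psmd14 (0.55) rose. The calls of Psmc4 (0.49) and Psmd9 (−0.46) were lost when any of 4 and any of 6 single arrays, respectively, was left out, with adjusted p up to 0.0837 and 0.0887. Lysosomal genes went both ways (11 of 35 higher, 8 lower; 0.16, −0.12 with ribosomal centring), from alpha-galactosidase Gla at 1.57 to the membrane protein Lamp2 at −0.54. Of 12 autophagy genes 6 were lower and 1 higher, with the initiating kinase Ulk2 at −1.40 and Atg3 at −0.95.

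Many metabolic genes of hepatocytes were lower. Of 28 drug-metabolising cytochromes P450, 16 were lower and 3 higher (median −0.59), against 13.4% of all genes lower. Cyp2c37 read 11.44, 11.32, 11.08, 10.96 and 10.51 in control and 7.01, 7.12, 7.64, 6.07 and 7.28 at 1 d (−4.04 ± 0.38, 16.4-fold lower, adjusted p = 2.12e-11). Cyp2c50, its close relative, read 12.11, 12.04, 11.77, 11.75 and 11.54 in control and 8.80, 9.66, 9.60, 8.49 and 9.18 at 1 d (−2.70 ± 0.31). In both genes replicate 4 was the lowest 1 d array, and control and 1 d lay more than 1.5 log2 units apart. Probe sets of closely related Cyp2c genes may share signal. Cyp2c29 fell by 2.13 and the omega-hydroxylase Cyp4f14 by 1.65. Not every member was lower. Cyp4b1 rose by 1.01, Cyp4f16 was 0.66 and Cyp2a12 0.50 higher, and Cyp1a1 (0.27) and Cyp3a13 (0.25) were not called. With ribosomal centring Cyp4f16 (0.38, adjusted p = 0.0521) and Cyp2a12 (0.22, adjusted p = 0.0973) lost their calls, as Cyp4f16 did when only the compared groups were fitted (adjusted p = 0.0564).

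The promoters of Cyp2c37 and Cyp2c50 are shown because these genes fell most in the family. With the second shifted by 2 bases, 199 of 248 aligned bases were identical (80.2%). CCAAT, in capitals, begins 214 and 17 bases before the start of Cyp2c37 (plus strand, chr19:39992174-39992423) and 212 and 12 bases before that of Cyp2c50 (plus strand, chr19:40089429-40089678). In the P450 list 13 of 24 promoters held CCAAT (54.2%).
Cyp2c37: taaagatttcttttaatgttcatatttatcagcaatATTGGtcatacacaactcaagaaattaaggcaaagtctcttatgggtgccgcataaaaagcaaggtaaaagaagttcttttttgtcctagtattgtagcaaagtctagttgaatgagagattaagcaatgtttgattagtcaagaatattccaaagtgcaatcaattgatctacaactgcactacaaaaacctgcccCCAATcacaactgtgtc
Cyp2c50: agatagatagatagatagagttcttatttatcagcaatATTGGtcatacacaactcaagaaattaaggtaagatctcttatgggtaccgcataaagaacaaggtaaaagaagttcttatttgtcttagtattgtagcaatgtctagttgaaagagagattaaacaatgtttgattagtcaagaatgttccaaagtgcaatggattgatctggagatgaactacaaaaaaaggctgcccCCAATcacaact

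Conjugation enzymes, which attach glucuronate, sulfate, glutathione or methyl groups, were lower in 11 of 23 cases and higher in 4 (median −0.57). Inmt, an N-methyltransferase, read 9.83, 10.55, 11.33, 10.67 and 9.82 in control and 6.34, 6.51, 7.30, 6.49 and 6.55 at 1 d (−3.80 ± 0.47, adjusted p = 2.38e-08). Papss2, which makes the sulfate donor, fell by 2.46 ± 0.26 (its other probe sets differed by −2.94, called, and, on a dim one, by −0.08, not called). Ugt2b38, a glucuronosyltransferase, read 6.69, 8.71, 7.91, 9.61 and 7.72 in control and 5.75, 4.69, 4.27, 6.27 and 5.75 at 1 d (−2.78 ± 0.46). Its groups came within 0.42 of each other at the nearest arrays. Sult1e1, the estrogen sulfotransferase, went the other way with 2.41 ± 0.49, and its 1 d array of replicate 1 (9.45) stood above the others (5.59 to 6.92). Aox3, the molybdenum aldehyde oxidase of mouse liver, read 10.48, 11.09, 10.84, 11.24 and 10.56 in control and 7.26, 9.65, 6.90, 7.70 and 8.41 at 1 d (−2.86 ± 0.30). Replicate 2 kept the highest 1 d value of Aox3, 0.83 below the lowest control array.

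Pericentral genes, expressed around the central vein under Wnt signalling, were lower in 13 of 17 cases and higher in 1 (median −1.13). Oat, which makes glutamate from ornithine for glutamine synthesis, held a narrow control range of 12.67 to 12.82 and read 9.12, 8.67, 9.52, 8.27 and 9.58 at 1 d (−3.71 ± 0.32, 13.1-fold lower). Axin2, a direct Wnt target, differed by −0.03 and was not called. Periportal and urea cycle genes were less uniform, with 4 of 12 lower and 3 higher (median −0.10). Agxt fell by 1.31, histidase (Hal) by 1.24 and ornithine transcarbamylase (Otc) by 1.14, Arg1 differed by 0.09 and Apoa4 rose by 1.45. The difference between the zonal lists was not tested.

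Bile acid genes were lower in 14 of 21 cases and higher in 1 (median −0.94). Cyp7a1, which limits the rate at which bile acids are made from cholesterol, read 9.36, 7.89, 7.21, 10.06 and 9.55 in control and 3.23, 4.74, 3.33, 3.34 and 4.75 at 1 d (−4.94 ± 0.65). Its 1 d values lay near the lower end of the scale, where a difference can be understated. The uptake carriers Slco1a1 and Slco1a4 fell by 2.77 ± 0.36 and 2.40 ± 0.37, and Cyp7b1 by 1.45. The receptor Nr1h4 (FXR) differed by −0.18 and was not called, and the efflux pump Abcb1a rose by 1.13. Control replicate 3 read low for Nr1h4 (8.14, against 8.88 to 9.17 on the other controls), which bears on its difference.

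Amino acid catabolism had the highest share of falls among the metabolic lists, 16 of 20, with 1 rise and a median of −0.81. Aadat, an aminotransferase of the lysine and kynurenine pathways, read 10.24, 10.52, 10.21, 11.05 and 10.50 in control and 8.39, 8.81, 8.26, 8.59 and 8.96 at 1 d (−1.91 ± 0.15, adjusted p = 5.12e-13). Proline dehydrogenase (Prodh) fell by 2.00, sarcosine dehydrogenase (Sardh) by 1.50, and Glud1, which releases ammonia from glutamate, rose by 0.54, a call lost with ribosomal centring (0.26, adjusted p = 0.0782). In the methionine cycle and folate pathways 6 of 10 genes were lower: Shmt1 fell by 0.98, Mat1a by 0.94 and Mthfd1 by 0.81. Sat1, which acetylates polyamines for export, rose by 2.10 ± 0.23 (8.66 to 9.31 in control, 10.51 to 11.78 at 1 d).

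Fatty acid oxidation and PPAR alpha targets were lower in 15 of 26 cases and higher in 3 (median −0.64). Aldh3a2, the fatty aldehyde dehydrogenase, read 10.73, 10.22, 10.27, 9.79 and 9.56 in control and 6.22, 6.77, 8.59, 5.76 and 7.17 at 1 d (−3.21 ± 0.39, 9.26-fold lower). Replicate 3 was the highest 1 d array, yet lay below all controls. Vnn1, a pantetheinase, fell by 2.31 and Decr2 fell by 1.49. The fasting-induced Pdk4 and Angptl4, also PPAR alpha targets, rose by 1.79 and 1.16. Of 23 peroxisome genes 11 were lower and 1 higher (median −0.38), with Pxmp2 at −1.46, Hsd17b4 at −1.20 and the transporter Abcd2 at 1.15. The Abcd2 call was lost without any of 6 single arrays (0.76, adjusted p = 0.206 without 1 d replicate 3).

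Genes of the respiratory chain and the tricarboxylic acid cycle were called lower in part. Of 20 genes for complex I, 10 were lower and 0 higher (median −0.30), and of 25 for complexes II to V, 11 were lower and 0 higher (−0.19). Ndufa9 read 10.23, 10.32, 10.07, 10.30 and 10.20 in control and 9.70, 9.60, 9.62, 9.71 and 9.80 at 1 d (−0.54 ± 0.08), a small difference without overlap. Ndufa10 fell by 0.51, Sdhb by 0.51 ± 0.10, and Atp5j, Atp5a1 and Atp5c1 of the ATP synthase by 0.39, 0.38 and 0.37. The larger value of Ndufs4 (−0.90) lost its call when any of 3 single arrays was left out (adjusted p up to 0.0899), and that of the assembly factor Ndufaf1 (−0.49) did so without control replicate 2 (adjusted p = 0.0681). With a fit to the compared groups alone, 3 complex I genes and 4 of complexes II to V were called, and without control replicate 3 the count for complex I was 17. Of 38 genes for the mitochondrial ribosome, import and chaperones, 3 were higher (Mrpl52 0.65, Tomm20 0.58 and Hspa9 0.36) and 1 lower (Mrpl42, −0.41, lost without any of 5 single arrays). The other probe set of Tomm20 differed by −0.12 without a call, and the Hspa9 call was lost with ribosomal centring (0.08, adjusted p = 0.449). Without control replicate 3, 7 members were lower. With all arrays, the median of the 38 genes was −0.02, against −0.03 for all genes, and 10.5% of them were called, against 29.7% of all genes. In the tricarboxylic acid cycle 8 of 18 genes were lower and 1 higher (median −0.26), with the dicarboxylate carrier Slc25a10 at −0.84 (its other probe set −0.60, not called) and Suclg1 and Idh3a at −0.51.

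Transcription factors of the hepatocyte were lower in 9 of 23 cases and higher in 4 (median −0.33). Onecut1 (HNF6) read 6.56, 8.02, 6.19, 8.44 and 8.52 in control and 4.56, 5.01, 5.19, 5.32 and 5.44 at 1 d (−2.44 ± 0.54). Control replicates 1 and 3 lay below the other control arrays, and all 1 d arrays lay below both of them. Foxa1 fell by 1.74, Foxa2 by 1.48 and Cebpa by 1.45, whereas Hnf4a differed by −0.33 and was not called. Control replicate 2 read low for Hnf4a (8.60, against 9.86 to 10.28 on the other controls), which bears on its difference. The acute-phase factors Cebpd and Cebpb rose by 1.58 and 0.80. Dbp, an output factor of the circadian clock, read 7.51, 7.63, 8.53, 9.23 and 9.07 in control and 6.10, 5.25, 6.72, 5.36 and 5.95 at 1 d (−2.52 ± 0.66). Its repressor Nfil3 rose by 1.70 ± 0.30, Per2 fell by 1.09 and Usp2 fell by 1.62, and their other probe sets differed by −0.42 and −2.43, both called. The labels give no clock time of sampling, so the part of time of day in the clock genes was not tested.

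Genes that are higher in male than in female mouse liver were lower in 9 of 12 cases and higher in 1 (median −2.03). Keg1 read 9.03, 10.05, 9.47, 10.35 and 9.61 in control and 4.40, 8.11, 6.60, 7.01 and 6.95 at 1 d (−3.09 ± 0.43). Replicate 1 stood far below the other 1 d arrays. Hsd3b5, a steroid reductase of male liver, fell by 3.33 ± 0.67, and Bcl6, a repressor in this programme, rose by 1.93. Female-biased genes had 3 rises and 4 falls among 18 (median −0.08), against 16.2% and 13.4% of all genes. At 1 d, 6 of these 18 lay among the lowest 10% of gene values, where a difference can be understated. Moxd1, in the male-biased list, was the called gene with overlapping groups and the second widest spread at 1 d: 7.95, 6.33, 6.86, 9.46 and 10.86 in control and 4.19, 6.80, 3.85, 7.83 and 5.73 at 1 d. Its difference of −2.61 lost the call when any of 4 single arrays was left out (−1.97, adjusted p = 0.107 without control replicate 5).

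Secreted products of the hepatocyte included both steady and lower genes. Of 21 plasma proteins and apolipoproteins 10 were lower and 2 higher (median −0.14). Apoa1, Ambp and Serpina1b stayed within 0.02 of control, at levels near the top of the scale for Apoa1 and Serpina1b, while Apoc2, the activator of lipoprotein lipase, rose by 1.15, Igfals, the acid-labile subunit that carries insulin-like growth factors, fell by 2.12 ± 0.23 and the paraoxonase Pon1 by 1.10. Of 31 complement and coagulation factors 16 were lower and 4 higher (median −0.30), with C2 and Mbl1 at −1.05 and F13b at −0.99. Tissue factor (F3) was 1.45 higher, a call lost without 1 d replicate 1 (0.98, adjusted p = 0.0749). Sucnr1, a receptor for succinate, read 7.83, 8.25, 7.73, 7.88 and 6.87 in control and 4.06, 4.76, 5.19, 4.14 and 5.60 at 1 d (−2.96 ± 0.43), with a gap of more than 1 log2 unit between the groups.

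Acute phase proteins were higher in 8 of 15 cases and lower in 2, and 1 control array bore on them. Control replicate 5 read 13.43 for serum amyloid A (Saa1), against 8.73 to 10.33 on the other controls, and 12.48 for orosomucoid Orm2, against 6.85 to 7.48. At 1 d Saa1 read 8.65 to 11.12 and Orm2 8.18 to 10.77, so that neither differed from control in the test (0.05 and 1.34). Metallothionein Mt1 was also highest in control on replicate 5, the others reading 9.13 to 11.86, and rose by 2.50 ± 0.60. Apcs rose by 2.13 ± 0.26 and the lipopolysaccharide receptor Cd14 by 2.69 ± 0.38, and the constitutive serum amyloid Saa4 fell by 1.29 with a low value of 7.39 on 1 d replicate 1. The Saa4 call was lost when only the compared groups were fitted (adjusted p = 0.0832), and its other probe set differed by −2.45. Without control replicate 5 the list had 9 higher and 2 lower genes and a median of 0.87 in place of 0.43.

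Cytokine, chemokine and receptor genes were higher in 26 of 62 cases and lower in 2 (median 0.35). Among chemokines and their receptors, Ccr1 rose by 2.15, Ccl6 by 1.92, Ccl2 by 1.65 and Ccr2 by 1.34, and the dimmer probe sets of Ccr1 and Ccr2 by 0.92 and 0.55. Il1r2, the decoy receptor for interleukin 1, rose by 1.89 and the oncostatin M receptor Osmr by 1.58, though its dimmer probe set differed by 0.25 and was not called. Not called were the cytokine Tnf (−0.08), the nitric oxide synthase Nos2 (−0.09) and the interleukin 1 receptor antagonist Il1rn (0.06), and the cytokine Il1a fell by 0.66. Of 33 interferon-induced genes 5 were higher and 5 lower (median −0.08), and this 30.3% is near the 29.7% of all genes called. Without control replicate 3, 2 were higher and 9 lower. Usp18 fell by 0.94, the GTPase Igtp fell by 0.88 and its relative Irgm2 fell by 0.84, whereas Ifi204 rose by 0.97. The calls of Usp18 and Irgm2 were lost without any of 4 and any of 3 single arrays (adjusted p up to 0.0639 and 0.211). Of 14 antigen presentation genes, 3 were higher and 1 lower (28.6%), also near the share of all genes, and their median of 0.01 became negative with each of the 3 scalings tried.

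Marker genes of the liver's cell types were looked at next. Hepatocyte markers averaged 11.47 to 11.83 on the control arrays and 11.33 to 11.60 at 1 d, with 2 of 6 lower (Asgr2 by 0.78 and Apoh by 0.22) and 0 higher. The Apoh call was lost when only the compared groups were fitted (adjusted p = 0.145). Monocyte and recruited macrophage markers were higher in 19 of 24 cases and lower in 0 (median 1.07), and their mean level was 5.64 to 6.04 on control arrays and 6.69 to 7.72 at 1 d. Clec4d rose by 1.85, Fcer1g by 1.31 and lysozyme Lyz2 by 1.18. Kupffer cell markers were higher in 5 of 8 cases, with C1qb at 1.12, Axl at 1.00 and C1qa at 0.97. Cd163 (0.67) was called, but lost that when any of 7 single arrays was left out (adjusted p up to 0.178). Their part in the rise of cytoskeletal, S100 and cytokine genes was not tested.

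Of 12 neutrophil markers, 5 were higher: S100a8, Il1r2, Fpr2 (1.22), Itgam (0.90) and Csf3r (0.78), several of which monocytes also express. The granule genes Mpo (4.51 ± 0.53 in control, 4.52 ± 0.14 at 1 d, SD, n = 5 each), Elane (5.18 ± 0.23 and 5.04 ± 0.14), Camp (4.52 ± 0.14 and 4.57 ± 0.10) and Ngp (4.68 ± 0.30 and 4.74 ± 0.73) were not called, and Ngp was high on 1 d replicate 1 alone (6.05). These granule genes are transcribed in marrow precursors and little in mature blood neutrophils. T and NK cell markers were lower in 3 of 19 cases (Zap70 by 0.75, Cd3e by 0.34 and Gzma by 0.33) and higher in 0, and this 15.8% is near the 13.4% of all genes called lower. Without control replicate 5 Zap70 lost its call (adjusted p = 0.0516), Gzma lost it when any of 4 arrays was left out, and Cd3e when only the compared groups were fitted (adjusted p = 0.0647). The 9 measured B and plasma cell markers lay between −0.37 and 0.23 and were not called. Of 6 red blood cell markers, 4 were lower, led by the erythroid factor Klf1 (−1.08) and including Ermap (−0.32; adjusted p = 0.0648 when only the compared groups were fitted). The calls of Slc4a1 (−0.47) and Rhag (−0.32) were lost when any of 4 and any of 5 single arrays was left out. Of 6 platelet markers, 3 were higher, with the platelet chemokine Ppbp at 1.77; Clec1b (0.67) and Gp5 (0.28) lost their calls without any of 3 and any of 5 single arrays.

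Some stellate cell and myofibroblast markers were higher. Of 16 markers on that list 6 were higher and 1 lower (median 0.30). The contractile Tagln, Acta2 (2.23 ± 0.24) and Tpm2 (1.08, with −0.25 and no call on its other probe set) and the matricellular Sparc (1.92 ± 0.20) rose. Acta2 read 5.97, 5.21, 6.23, 6.08 and 5.81 in control and 7.17, 8.36, 8.15, 8.93 and 7.82 at 1 d. Lrat, which stores retinoid in quiescent stellate cells, differed by −0.20, and Pdgfra by 0.15. Of 19 endothelial markers 4 were higher and 2 lower (31.6%, near the share of all genes): Pecam1 rose by 1.56 and Plvap by 0.89, and Ehd3 fell by 0.61. Dnase1l3 (−0.67) lost its call without control replicate 2 (adjusted p = 0.0532), and its other probe set differed by 0.0. Of 11 cholangiocyte markers 2 were higher, Cd24a and Anxa4, and 1 was lower (Alpl, −0.39, lost without control replicate 5 at an adjusted p of 0.0782), while the defining Krt19 and Epcam differed by 0.26 and 0.24 without a call. The list's median of 0.26 became −0.02 with ribosomal centring. Fat, muscle, pancreas and mesothelial markers had 1 call in 12, Fabp4, which rose by 3.28 ± 0.30 (5.77 to 7.17 in control, 9.19 to 10.79 at 1 d). Adiponectin (Adipoq), the defining fat marker of that list, was 3.36 in control and 3.13 at 1 d, below the lowest 10% of all gene values in both.

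**Figure D3:**
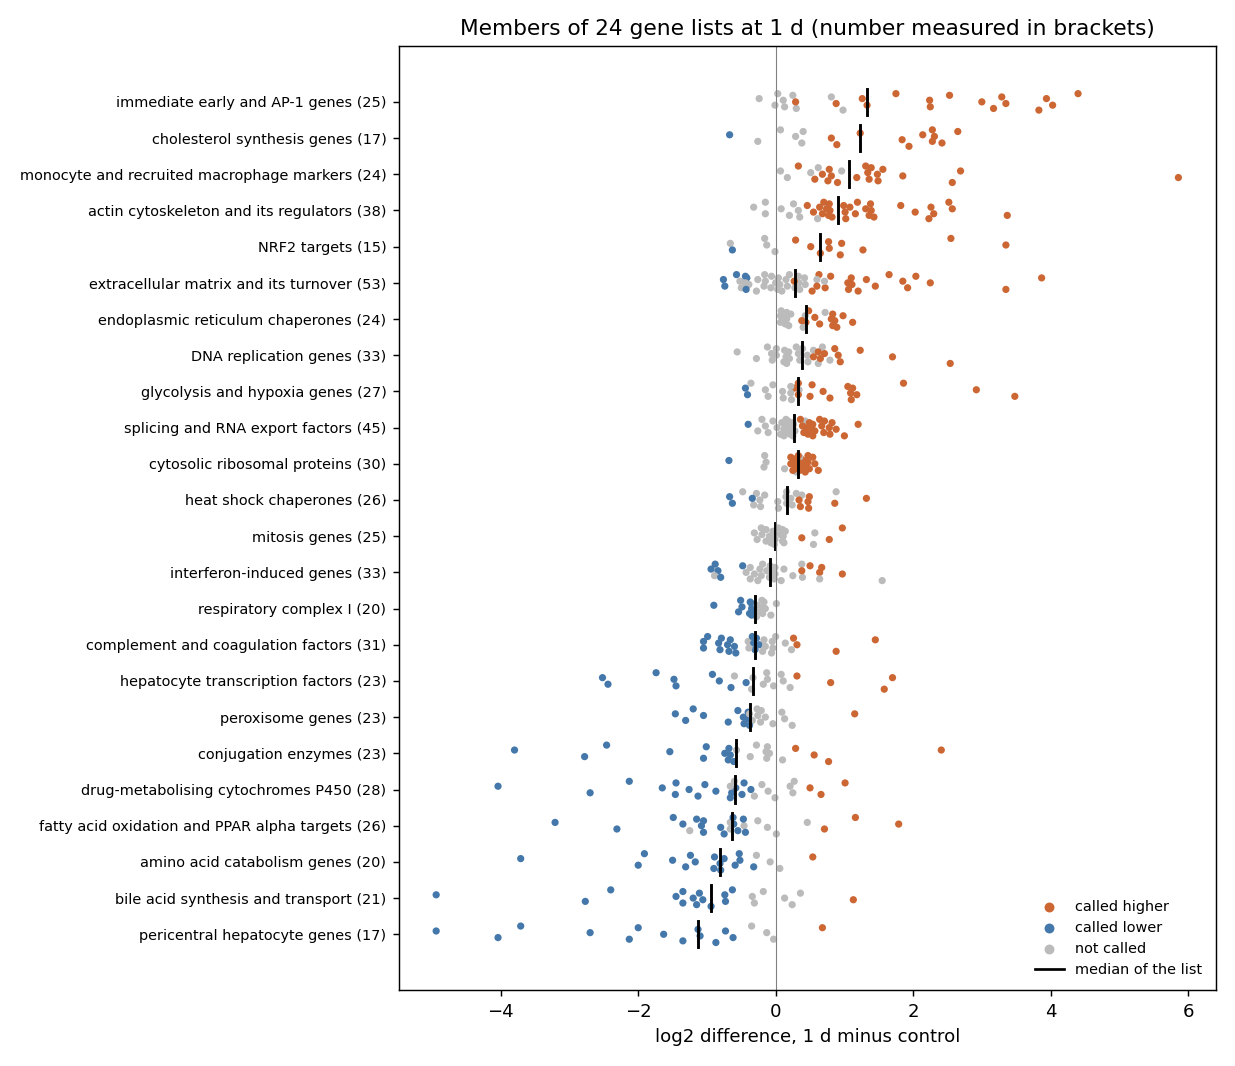
Log2 difference between 1 d and control (horizontal axis) for the measured members of 24 gene lists (rows), 1 point per gene, coloured by the call, with a bar at the median of each list. Among the lists shown, medians run from −1.13 for pericentral genes to 1.33 for immediate early genes, and most lists hold members on both sides of 0. Not all lists are shown, and the male-biased genes, left out here, had a lower median (−2.03).

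Some DNA replication genes were already higher at 1 d, and few mitosis genes were. Of 33 DNA replication genes 10 were higher (30.3%, against 16.2% of all genes) and 0 lower (median 0.39). Counted in either direction, this 30.3% was near the 29.7% of all genes called. Mcm6, a subunit of the replicative helicase, read 4.92, 5.49, 4.77, 5.07 and 5.66 in control and 7.41, 7.66, 7.76, 8.45 and 7.36 at 1 d (2.54 ± 0.30, adjusted p = 7.44e-09). Mcm3 rose by 1.70 (its dimmer probe set differed by 0.05), Fen1 by 1.23 and Pcna by 0.94. E2f1 (−0.12), Ccne2 (0.13) and Cdc6 (0.01) were not called. Of 25 mitosis genes 3 were higher, the kinase subunits Cks1b (0.97) and Cks2 (0.78) and the checkpoint gene Bub3 (0.38), and 0 were lower (median −0.01, and 0.01 after quantile normalization). The Bub3 call was lost without control replicate 3 (adjusted p = 0.0658). Between 1 d and 2 d 29 of the 33 replication genes and 18 of the 25 mitosis genes rose, against 10.5% of all genes. Pclaf, a PCNA-associated factor, went from 4.82 on average at 1 d to 8.64 at 2 d (3.82 ± 0.26, adjusted p = 3.93e-15), the S and G2 cyclin Ccna2 rose by 3.40 ± 0.31 and the helicase Hells by 3.21.

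Against the arrays of 12 h, 304 genes (5.09%) differed, 193 (3.23%) higher at 1 d and 111 (1.86%) lower. Rises made up 63.5% of these calls, 160 of 320 after median centring and 21.7% after ribosomal centring. Of the 969 genes above control at 1 d, 153 were also above 12 h, 21 were below it and 795 were not called. Of the 803 genes below control, 52 were also below 12 h and 0 above. Both comparisons share the 1 d arrays, with the same sign, so these counts are a description only. Among called genes whose 12 h and 1 d arrays do not overlap, Anxa2 rose most from 12 h (2.45 ± 0.30, adjusted p = 6.83e-07). It reached 10.27, 10.25, 10.80, 11.70 and 9.32 at 1 d. Lgals1, a secreted galectin, averaged 6.69 in control and 6.59 at 12 h and rose by 1.75 ± 0.29 to 1 d. S100a6 rose by 1.91 and Pafah1b3 by 1.44. Among such genes, falls from 12 h were led by Tnfaip6, a hyaluronan-binding protein of acute inflammation (−2.67 ± 0.43). Its 1 d arrays read 4.38, 3.22, 2.56, 3.72 and 4.54, and it was not called against control (adjusted p = 0.0577). Ifrd1, a stress-induced regulator, fell by 1.65 and remained 2.71 above control. Without 1 d replicate 4 the count of genes called against 12 h was 172, and fitted on the 12 h and 1 d arrays alone it was 39.

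From 1 d to 2 d, 847 genes (14.2%) differed, 628 (10.5%) higher and 219 (3.66%) lower at 2 d. Rises made up 74.1% of these calls, 54.9% after quantile normalization and 43.4% after median centring. Of the 969 genes above control at 1 d, 117 rose further, 136 fell and 716 were not called. Of the 803 below control, 174 rose and 4 fell further. The 1 d arrays enter both comparisons with opposite sign, which by itself favours opposite directions, so these counts are a description only. Cpe, a carboxypeptidase of secretory granules, rose by 4.13 ± 0.42 and Col1a2 by 3.92 ± 0.26. Acta2 and Tagln, by contrast, were called against control at 1 d, where Col1a2 was not. Inmt, among the deepest falls at 1 d, rose by 3.08 ± 0.47 to 2 d, Aox3 by 2.36 ± 0.30 and Papss2 by 2.07, whereas Cyp2c37 (0.80) and Oat (0.86) did not pass the test and Scd1 differed by −0.48. Akap12, a scaffold for protein kinase A that read 7.50 to 10.44 at 1 d, fell by 2.57 and the B cell chemokine Cxcl13 fell by 2.35.

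**Figure D4:**
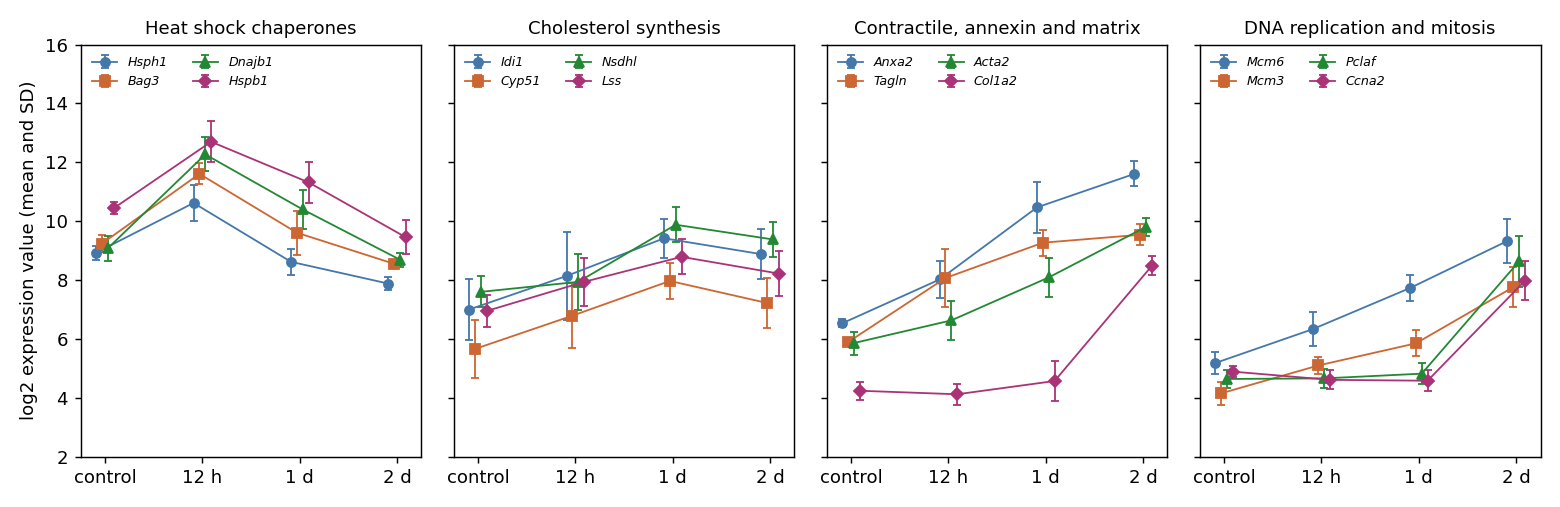
Mean log2 expression value and SD (5 arrays per group) in control and at 12 h, 1 d and 2 d for 16 genes in 4 panels. Among the groups shown, Hsph1 and Bag3 are highest at 12 h and back near control at 1 d. The 4 cholesterol genes have their highest mean at 1 d. Of these, Idi1, Cyp51 and Nsdhl were not called between 1 d and 2 d, nor were Idi1 and Cyp51 between 12 h and 1 d. Pclaf, Ccna2 and Col1a2 are called against 1 d at 2 d and not against control at 1 d.

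The 1 d arrays differed among themselves in the size of the response. Over the 284 genes at least 2-fold higher, the median difference from the control mean was 1.74, 1.29, 1.21, 1.91 and 1.36 on replicates 1 to 5, and over the 132 genes at least 2-fold lower it was −1.80, −1.29, −1.38, −1.58 and −1.05. Replicates 1 and 4 had the largest departures in both directions. The genes were chosen from these same arrays, so this is a description only. Across all genes the median SD was 0.21 at 1 d and 0.25 in control, with a larger SD at 1 d for 38.0% of genes. Without control replicate 3, a choice made after seeing the data, the control value was 0.16 and 64.0% of genes had the larger SD at 1 d. The called genes with the widest 1 d spread were Tac1, the precursor of substance P, then Moxd1, Btg2, Ly6d and Sult1e1. Tac1 stayed between 2.53 and 2.65 in control and read 3.16, 4.95, 3.47, 7.38 and 6.05 at 1 d (2.38 ± 0.45). Ly6d, a surface protein of epithelia and lymphoid precursors, read 9.36, 6.14, 9.30, 9.44 and 7.16 at 1 d against 5.01 to 6.10 in control (2.72 ± 0.41).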

How the data were processed

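Total liver RNA was measured on Affymetrix mouse genome arrays. Per the submitters' processing notes, the authors made the deposited log2 expression values with oligo 1.52.0 and robust multi-array averaging. The sources used here do not say if this was 1 run. Of the 8137 probe sets shared by all 49 arrays, 7370 had 1 gene symbol in the platform annotation, 223 had several and 544 were not listed. The probe set with the highest mean stood for each of 5976 genes. Precision is limited by how many arrays there are, since arrays have no depth.

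The values were used as deposited. limma 3.58.1 in R 4.3.3 was fitted to all 49 arrays with 1 mean for each of 10 groups (lmFit, contrasts.fit, eBayes), so that the groups share an estimate of the spread. A call is an adjusted p under 0.05 (Benjamini-Hochberg, all genes together), and ± after a difference is the SE of this fit. The fitting script was tested on simulated data. Lists are described by counts and medians, without a test.

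The comparison, its members and the gene lists were chosen with earlier results of these data known. Genes are named by rule: the 12 largest rises and falls among called genes whose groups do not overlap, the 4 called members of a list with the largest differences plus examples of its roles, the 5 largest rises and falls against 12 h and 2 d by the same criteria, and the 5 called genes with the widest spread at 1 d. Replicate numbers were not used as pairs. Same-numbered arrays of control and 1 d had deviations correlated at −0.13 to 0.25. Alternatives changed the probe set rule, the unit, possible cross-hybridisation, dim genes, scaling (3 ways), eBayes settings, array weights, the replicate block, the groups fitted and each array in turn. Promoters were taken from RefSeq (GRCm38.p6).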

Additional observations from a re-analysis of the deposited data

Results flagged for a closer look

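Single arrays far from the other 4 of their group were looked for in 632 groups of values (316 genes, control and 1 d) by the gap to the nearest array relative to the range. The rule marked 56, where chance gives about 1 in 20. Control replicate 3, the array of narrow spread, accounts for 23 of them and 1 d replicate 1 for 9.

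Control replicate 1 was high for Abcd2 (7.24, others 4.45 to 5.06). Control replicate 2 was high for Akap12 (6.14, others 4.97 to 5.26). Control replicate 2 was low for Dnajb1 (8.34, others 9.14 to 9.41) and Hnf4a (8.60, others 9.86 to 10.28). Control replicate 3 was high for Col1a1 (5.19, others 4.31 to 4.46) and Il1r2 (5.77, others 5.16 to 5.28). Control replicate 3 was low for Actg1 (10.62, others 11.50 to 11.78), Apoa1 (13.92, others 14.01 to 14.03), Bad (6.88, others 7.35 to 7.54), Bub3 (8.16, others 8.73 to 8.88) and Ddx39a (6.68, others 7.70 to 8.04). It was also low for Eif2s2 (9.97, others 10.38 to 10.48), Eif4ebp1 (8.26, others 8.76 to 8.91), Gars (7.83, others 8.79 to 8.95), Gsr (9.11, others 9.59 to 9.70) and Iqgap1 (5.52, others 6.19 to 6.40). It was also low for Mdm2 (7.73, others 8.17 to 8.32), Mrpl52 (8.63, others 9.28 to 9.49), Nhp2 (7.94, others 8.76 to 8.96), Nr1h4 (8.14, others 8.88 to 9.17) and Pafah1b3 (4.75, others 5.48 to 5.63). It was also low for Pdgfra (5.01, others 5.94 to 6.30), Pgd (6.07, others 6.88 to 7.14), Procr (4.11, others 4.30 to 4.34), Psph (4.95, others 6.09 to 6.51) and Scd2 (3.17, others 4.18 to 4.40). It was also low for Xpo1 (7.21, others 8.01 to 8.22). Control replicate 4 was low for Pclaf (4.08, others 4.74 to 4.83). Control replicate 5 was high for Ambp (13.17, others 12.85 to 12.93), Orm2 (12.48, others 6.85 to 7.48) and Tnfaip6 (2.80, others 2.53 to 2.61). Control replicate 5 was low for Pon1 (12.63, others 12.94 to 13.05) and Tac1 (2.53, others 2.64 to 2.65).

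Replicate 1 at 1 d was high for Abcb1a (6.49, others 4.75 to 5.13) and Ngp (6.05, others 4.37 to 4.44). Replicate 1 at 1 d was low for Cebpa (8.41, others 8.99 to 9.15), Igfals (5.86, others 7.28 to 7.81), Igtp (6.87, others 8.02 to 8.09), Irgm2 (5.33, others 7.18 to 7.45) and Mlxipl (7.37, others 7.50 to 7.55). It was also low for Mrpl42 (8.93, others 9.47 to 9.61) and Ulk2 (6.18, others 7.16 to 7.55). Replicate 2 at 1 d was low for Angptl4 (9.19, others 10.10 to 10.36) and Nhp2 (9.40, others 9.88 to 10.00). Replicate 3 at 1 d was high for Elovl6 (7.46, others 6.36 to 6.60) and Inmt (7.30, others 6.34 to 6.55). Replicate 3 at 1 d was low for Atp5c1 (11.57, others 11.66 to 11.67), Cebpb (10.70, others 11.47 to 11.62) and Nfil3 (7.48, others 9.01 to 9.07). Replicate 4 at 1 d was high for Calu (10.13, others 9.44 to 9.62), Ccna2 (5.23, others 4.35 to 4.46), Gla (7.13, others 6.44 to 6.51), Itga6 (7.78, others 6.40 to 6.74) and Pafah1b3 (7.23, others 6.33 to 6.42). Replicate 4 at 1 d was low for Cyp2a12 (12.25, others 12.59 to 12.70). Replicate 5 at 1 d was high for Lce1d (6.95, others 5.00 to 5.43).

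Dnaja1 differed from control in opposite directions at 12 h and 1 d: 0.64 higher at 12 h and 0.63 lower at 1 d, where the log2 difference is −0.63. The test of the difference between these times gave −1.26 ± 0.16 (adjusted p = 1.42e-06 in limma).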

How the results depend on the processing

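The count of 1772 genes called at 1 d against control became 3458 after ribosomal protein centring (541 higher, 2917 lower) and 1135 when only the compared groups were fitted (682 higher, 453 lower). Median centring gave 1230 lower genes. Under the other alternatives, the count of calls stayed within 1.5 times, from 1393 without probe sets open to cross-hybridisation, where 4909 genes were tested, to 2345 with every probe set on its own, where 8137 were tested. Leaving out 1 array gave 1574 to 1736 calls, 788 (without control replicate 3) to 972 of them higher and 690 to 856 lower, and 362 to 453 of at least 2-fold. Against 12 h, the 304 calls became 507 after quantile normalization, 460 after ribosomal centring, 39 when only the compared groups were fitted, and 172 to 314 with 1 array left out. Without the 3 arrays of narrow spread, an alternative chosen after seeing the data, the count was 474. Between 1 d and 2 d the 847 calls ranged from 597 to 891 with 1 array left out. Apart from constructions that test fewer genes or fit fewer arrays, the cause was not tested.

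Among 316 genes looked at singly, 4 changed sign and were called with the main setting or with the alternative. Sign changes of genes called in neither were not counted. With ribosomal centring Apoa1 was at −0.28 and Serpina1b at −0.27 in place of 0.01, and Gp5 at −0.0 in place of 0.28. Tpm2 was at −0.25 without probe sets open to cross-hybridisation, in place of 1.08. Of the 254 called genes, 34 lost the call under some alternative other than leaving out an array and 24 on leaving out some array. The median changed sign with ribosomal centring in 14 lists.

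With the replicate number as a block, the replicate block fit called 1893 genes against control (1023 higher, 870 lower), 343 against 12 h and 928 between 1 d and 2 d. In the check of deviations, 1 of the 5 array pairs of control and 1 d correlated best with its own number. Between 1 d and 12 h, replicates 4 and 5 did so (r = 0.33 and 0.62), and replicates 1 to 3 did not (−0.45, −0.09 and 0.02). Between 2 d and 1 d only replicate 4 did (0.24). The check therefore does not settle whether the numbers pair arrays of 12 h, 1 d and 2 d.

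Values near either end of the scale, under 3.38 for the lowest 10% of gene values and up to 14.41, can understate a difference. The shortened control arrays limit all comparisons with control to 5976 genes. The feeding and vehicle of the control group are not stated.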

Other observations

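Of 16 measured Lce, Sprr and Lor genes, which encode proteins of the cornified envelope of skin cells, 4 were higher at 1 d and 12 were not called (−0.17 to 0.35). All 4 were called lower again from 1 d to 2 d. Sprr2i read 3.50, 3.39, 3.78, 3.79 and 3.55 in control and 6.62, 5.44, 6.67, 5.67 and 6.89 at 1 d (2.66 ± 0.22), and fell by 2.75 to 2 d. Lce1d rose by 2.75 ± 0.26 and fell by 2.55 to 2 d, and Lce1f rose by 2.56 ± 0.23 and fell by 2.71. Loricrin (Lor) read 5.31 to 5.91 in control and 6.90, 7.55, 6.90, 7.95 and 8.23 at 1 d (1.89 ± 0.28) and fell by 1.76, but its dimmer probe set differed by −0.16 at 1 d and was not called. In each of these genes the 5 arrays at 1 d lay above all control arrays. They, and the families counted, were picked after their values were seen, apart from those that the naming rule gives.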
